A study of Mus musculus with 6 samples.

Results

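The receptors and the signal-carrying Smads of the TGFβ superfamily were followed in NMuMG cells, an epithelial line established from normal mouse mammary gland. They are the type II receptor Tgfbr2, the type I receptors Tgfbr1, Acvr1 and Bmpr1a, the co-receptor Tgfbr3, the receptor Smads Smad1, Smad2, Smad3 and Smad5, and the common Smad, Smad4. These 10 genes, of 21240 counted, were taken by symbol, and each was present as 1 row of the count table. In this line TGFβ provokes an epithelial to mesenchymal transition. The study asked how enhancers that answer to TGFβ are selected and what happens to chromatin there. As a part of it, genes were sorted by RNA sequencing into early and late changes.

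A TGFβ ligand binds a type II receptor serine/threonine kinase, which phosphorylates a type I receptor, and that receptor phosphorylates receptor Smads at their carboxy end. Smad2 and Smad3 carry the signals of TGFβ and activin, whereas Smad1 and Smad5 carry those of bone morphogenetic proteins (BMP). Both kinds pair with Smad4, enter the nucleus and act on target genes together with other DNA-binding factors.

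All cultures were NMuMG cells kept for 6 h without serum and insulin, and they carried no genetic change named in the labels. Vehicle cultures then received the carrier solution of HCl and BSA for 2 h, and the treated cultures were given 5 ng/ml TGFβ1, either for 2 h or for 12 h. Each condition had 2 libraries, labelled as biological replicates of this single line, and stranded total RNA was sequenced. Vehicle was sampled at 2 h alone. A longer time with TGFβ1 and a longer time without serum therefore cannot be told apart where 12 h is compared with vehicle or with 2 h. The 2 h and the 12 h comparison share the vehicle libraries.

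The libraries held 14705886 to 23786993 counts, and 11080 genes reached a level of 2 CPM (counts scaled to library size) in 2 or more libraries and were tested. Replicates differed by a median of 0.15 on the log2 scale over genes in vehicle, and by 0.22 and 0.13 after 2 h and 12 h of TGFβ1. Of 11 epithelial markers 6 were abundant enough to be tested, among them Cdh1, Krt8 and Krt18, whereas Epcam, Esrp1, Cldn3, Cldn7 and Grhl2 were at 0 to 27 counts in every library. The summed level of the epithelial list was 5320 to 6155 CPM in vehicle, 6805 to 6847 CPM at 2 h and 10609 to 10636 CPM at 12 h. Its members moved both ways, since Krt8 and Krt18 were higher at 12 h (log2FC 1.63 and 1.53, adjusted p = 0.000114 and 0.000275) and Krt19 was lower (-1.95, adjusted p = 0.000103), whereas Cdh1, Ocln and Tjp1 had -0.07, -0.52 and -0.34 with no call. Of 10 mesenchymal markers 8 were tested, and their summed level was 3166 to 3319, 3693 to 4712 and 5165 to 5275 CPM. Here 7 of the 8 were called higher at 12 h, among them Vim and Fn1 (log2FC 0.69 and 3.84, adjusted p = 0.00981 and 5e-05), and S100a4 was lower (-1.13, adjusted p = 0.00497). These lists moved with the conditions, and their part in the results on the receptors and Smads was not tested. Leukocyte, endothelial and adipocyte markers summed to at most 1.95 CPM in any library, with no gene of these lists tested. The endothelial sum was 0.176 to 0.255 CPM in vehicle, 0.353 to 0.354 at 2 h and 1.74 to 1.95 at 12 h, where Cdh5 had 39 and 36 counts. All levels below are TMM-normalized CPM, and p-values come from the quasi-likelihood test of edgeR, adjusted by the Benjamini-Hochberg method over all tested genes.

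TGFβ1 raised 2 type I receptors and 1 Smad of the group within 2 h. Acvr1 rose 7.33-fold (95% interval 5.39 to 9.98), Tgfbr1 5.67-fold (3.12 to 10.3) and Smad3 1.95-fold (1.56 to 2.42). At 12 h Acvr1 and Tgfbr1 were still higher than in vehicle, by 5.35-fold (3.95 to 7.24) and 2.69-fold (1.51 to 4.78), whereas the call of Smad3 was no longer made. No member was called lower than vehicle at either time in this fit, which has no block for the replicate number. With such a block 4 members were called at 2 h, where Tgfbr2 was lower, and 3 at 12 h, where Smad1 was higher. Of the 11080 tested genes, the block then called 3222 in place of 1680 at 2 h and 6127 in place of 4799 at 12 h. Of the 9 members tested, 3 were called at 2 h, where 15.2% of all tested genes were called in either direction, 9.91% higher and 5.25% lower. At 12 h 2 members were called, where 43.3% of all tested genes were called, 21.8% higher and 21.5% lower. The median log2 fold change (log2FC) of the 9 members was 0.16 at 2 h and 0.24 at 12 h, beside -0.01 and 0.02 over all tested genes. In bulk RNA a lower level can come from fewer cells of a type or from less RNA per cell, and these cannot be told apart. With scaling by total counts, 854 of 1828 called genes were higher at 2 h in place of 1098 of 1680, and 1831 of 4876 in place of 2414 of 4799 at 12 h, while the members called were 3 and 2 under both scalings.

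**Figure D1:**
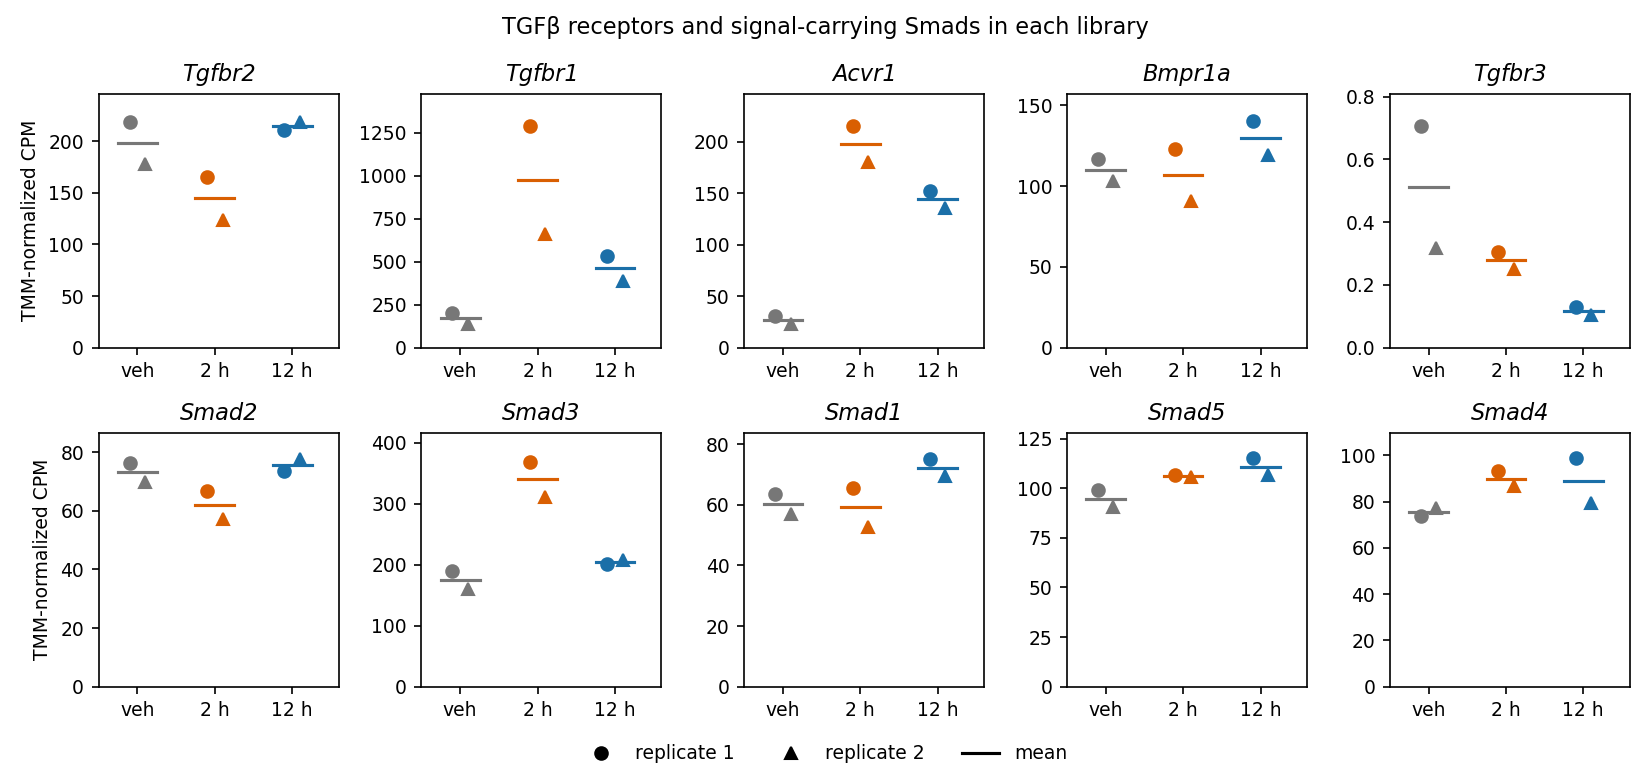
TMM-normalized CPM of the 10 genes in each of the 6 libraries, with one panel per gene and the 3 conditions on the x axis. Both treated groups of Acvr1 and Tgfbr1 lie above both vehicle libraries, Smad3 is highest in the 2 libraries of 2 h, and Tgfbr3 stays at or below 0.71 CPM.

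Tgfbr2, the type II receptor that binds TGFβ itself, lies on chromosome 9 of mm9 (chr9:115993415-116084383, minus strand, Entrez gene 21813). It was at 219 and 177 CPM in vehicle, 166 and 124 CPM at 2 h, and 210.5 and 219 CPM at 12 h. Both libraries of 2 h were below all libraries of the other conditions, whereas the ranges of vehicle and 12 h overlapped. The difference at 2 h had a log2FC of -0.45 (SE 0.17, 95% interval -0.86 to -0.05) and did not pass the test (adjusted p = 0.130), and at 12 h the log2FC was 0.12 (-0.29 to 0.52, adjusted p = 0.611). Without replicate 1 of 2 h, the lower level at 2 h passed, with a log2FC of -0.69 and an adjusted p of 0.0227, and with the replicate number as a block it passed too (-0.46, adjusted p = 0.0209). The log2FC at 2 h was smaller and not called without replicate 2 of 2 h (-0.26, adjusted p = 0.350) or without replicate 1 of vehicle (-0.29, 0.480). Between the treated groups Tgfbr2 was higher at 12 h than at 2 h, with a log2FC of 0.57 (SE 0.17, 95% interval 0.17 to 0.97, adjusted p = 0.0408). That call was lost without replicate 2 of 2 h (0.37, adjusted p = 0.105) and without replicate 1 (0.59, 0.159) or replicate 2 (0.53, 0.191) of 12 h.

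Tgfbr1, the type I receptor that TGFβ uses together with Tgfbr2, lies on chromosome 4 (chr4:47366094-47427803, plus strand, Entrez gene 21812). It was at 204 and 140.1 CPM in vehicle, 1288 and 661 CPM at 2 h, and 536 and 389 CPM at 12 h. The 3 groups did not overlap, in the order vehicle, 12 h and 2 h, although the replicates of 2 h lay far apart. The log2FC was 2.502 at 2 h (SE 0.36, 95% interval 1.64 to 3.36, adjusted p = 0.00608) and 1.43 at 12 h (SE 0.35, 0.59 to 2.26, adjusted p = 0.0161). At 2 h it ranked 93 from the highest log2FC among the 11080 tested genes, and at 12 h it ranked 549. The rise at 12 h lost its call without replicate 2 of vehicle (1.18, adjusted p = 0.0839) and without replicate 1 of 12 h (1.16, 0.113). From 2 h to 12 h its log2FC was -1.08 (95% interval -1.90 to -0.25), which missed the threshold with an adjusted p of 0.0515. Without replicate 2 of 2 h the same difference passed, with a log2FC of -1.48 and an adjusted p of 0.00413, and with the replicate block it had -1.02 and 0.0002, whereas without replicate 1 of 2 h it was -0.51 with an adjusted p of 0.152. The reads of Tgfbr1 numbered 3.90 and 2.01 per exon base at 2 h against 0.53 and 0.34 in vehicle. The methods name a removal of duplicate reads, but removal by start position would leave about 1 single-end read per base on a strand, and 1594 of 18958 genes matched to the annotation exceeded that in some library. The exon models used for counting (UCSC) and for these lengths (GENCODE) come from different sources, and neither their part nor that of the handling of duplicates was tested.

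Acvr1 encodes a type I receptor, also called ALK2, that is best known for carrying BMP signals to Smad1 and Smad5, and it lies at chr2:58241055-58419568 on the minus strand (Entrez gene 11477). It was at 31.2 and 22.7 CPM in vehicle, 215 and 180.4 CPM at 2 h, and 153 and 136 CPM at 12 h. Every treated library was above both vehicle libraries, and both libraries of 12 h were below both libraries of 2 h. The log2FC was 2.87 at 2 h (SE 0.19, 95% interval 2.43 to 3.32, adjusted p = 0.000421) and 2.42 at 12 h (SE 0.18, 1.98 to 2.86, adjusted p = 0.000164). Acvr1 ranked 76 of 11080 at 2 h and 221 at 12 h. The step from 2 h to 12 h, a log2FC of -0.46 (95% interval -0.86 to -0.05), did not pass the test with an adjusted p of 0.0819, but it passed without replicate 2 of 2 h (-0.58, adjusted p = 0.0457) and with the replicate block (-0.45, 0.00457). Without replicate 1 of 2 h it was -0.32 (adjusted p = 0.210), and without replicate 1 or 2 of 12 h it was -0.55 (0.184) or -0.38 (0.322).

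Bmpr1a, the type I receptor ALK3 that also binds BMP ligands (chr14:35223920-35316527, minus strand), showed no such rise. It was at 117 and 103 CPM in vehicle, 123 and 91.0 CPM at 2 h, and 140.5 and 119 CPM at 12 h. The range of 2 h enclosed that of vehicle, and both libraries of 12 h were above vehicle. Its log2FC was -0.04 at 2 h (95% interval -0.44 to 0.37, adjusted p = 0.907) and 0.24 at 12 h (-0.16 to 0.65, adjusted p = 0.291). At 2 h the intervals of Acvr1 and Tgfbr1 lay above that of Bmpr1a, and at 12 h that of Acvr1 did, whereas those of Tgfbr1 and Bmpr1a overlapped. The difference in response between these genes was not tested.

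Tgfbr3, or betaglycan, a co-receptor that presents TGFβ ligands to Tgfbr2 (chr5:107535589-107718648, minus strand), was close to absent. It had 12 and 5 counts in vehicle, 6 and 5 at 2 h, and 3 and 2 at 12 h, or 0.71 to 0.10 CPM. It did not reach the minimum level and was not tested in the comparisons above. With no minimum level, over 16115 genes, its log2FC was -0.88 at 2 h (adjusted p = 0.533) and -2.07 at 12 h (95% interval -3.81 to -0.34, adjusted p = 0.0694), and these values rest on 2 to 12 counts a library.

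Smad3, the receptor Smad of TGFβ and activin that binds DNA directly, lies at chr9:63494574-63605801 on the minus strand (Entrez gene 17127). It was at 189 and 160.1 CPM in vehicle, 368 and 311 CPM at 2 h, and 201 and 208 CPM at 12 h. Both libraries of 2 h were above every other library, and both libraries of 12 h were slightly above vehicle. Its log2FC was 0.96 at 2 h (SE 0.13, 95% interval 0.64 to 1.28, adjusted p = 0.00508) and 0.23 at 12 h (-0.09 to 0.54, adjusted p = 0.207). Smad3 ranked 598 from the highest log2FC at 2 h. Between the treated groups it was lower at 12 h, with a log2FC of -0.73 (SE 0.13, -1.05 to -0.42, adjusted p = 0.00676). The call between the treated groups was lost without replicate 1 (-0.72, adjusted p = 0.0675) or replicate 2 (-0.76, 0.0583) of 12 h.

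Smad2, the other receptor Smad of TGFβ and activin, is encoded on chromosome 18. It was at 76.4 and 69.8 CPM in vehicle, 66.9 and 57.2 CPM at 2 h, and 73.5 and 77.8 CPM at 12 h. The libraries of 2 h were the lowest, but the log2FC at 2 h was -0.24 (95% interval -0.52 to 0.04, adjusted p = 0.237), and at 12 h it was 0.05 (-0.23 to 0.33, adjusted p = 0.762). The intervals of Smad2 and Smad3 did not overlap at 2 h and overlapped at 12 h.

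The Smads of the BMP branch and the common Smad were not called in the fit without a block. With the replicate block Smad1 was called at 12 h against vehicle (log2FC 0.26, adjusted p = 0.0491) and between 12 h and 2 h (0.30, adjusted p = 0.0344). Smad1 (chr8:81862294-81923417, minus strand) was at 63.6 and 57.0 CPM in vehicle, 65.7 and 52.6 CPM at 2 h, and 75.1 and 69.5 CPM at 12 h. Smad5 (chr13:56804371-56843738, plus strand) was at 98.9 and 90.5 CPM in vehicle, 107 and 105.6 CPM at 2 h, and 115 and 107 CPM at 12 h. Smad4, encoded on chromosome 18, was at 73.7 and 77.4 CPM in vehicle, 93.1 and 86.8 CPM at 2 h, and 98.7 and 79.6 CPM at 12 h. The treated libraries of Smad5 and Smad4 were above both vehicle libraries at both times, and those of Smad1 were above vehicle at 12 h only. The log2FC at 2 h was -0.03 for Smad1 (95% interval -0.36 to 0.30), 0.16 for Smad5 (-0.08 to 0.41) and 0.25 for Smad4 (-0.06 to 0.56), with adjusted p-values of 0.913, 0.331 and 0.2496. At 12 h it was 0.26 for Smad1 (-0.07 to 0.59), 0.23 for Smad5 (-0.01 to 0.47) and 0.24 for Smad4 (-0.07 to 0.55), with adjusted p-values of 0.170, 0.113 and 0.179. A rise of 2-fold in any of them lay outside these intervals at both times.

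**Figure D2:**
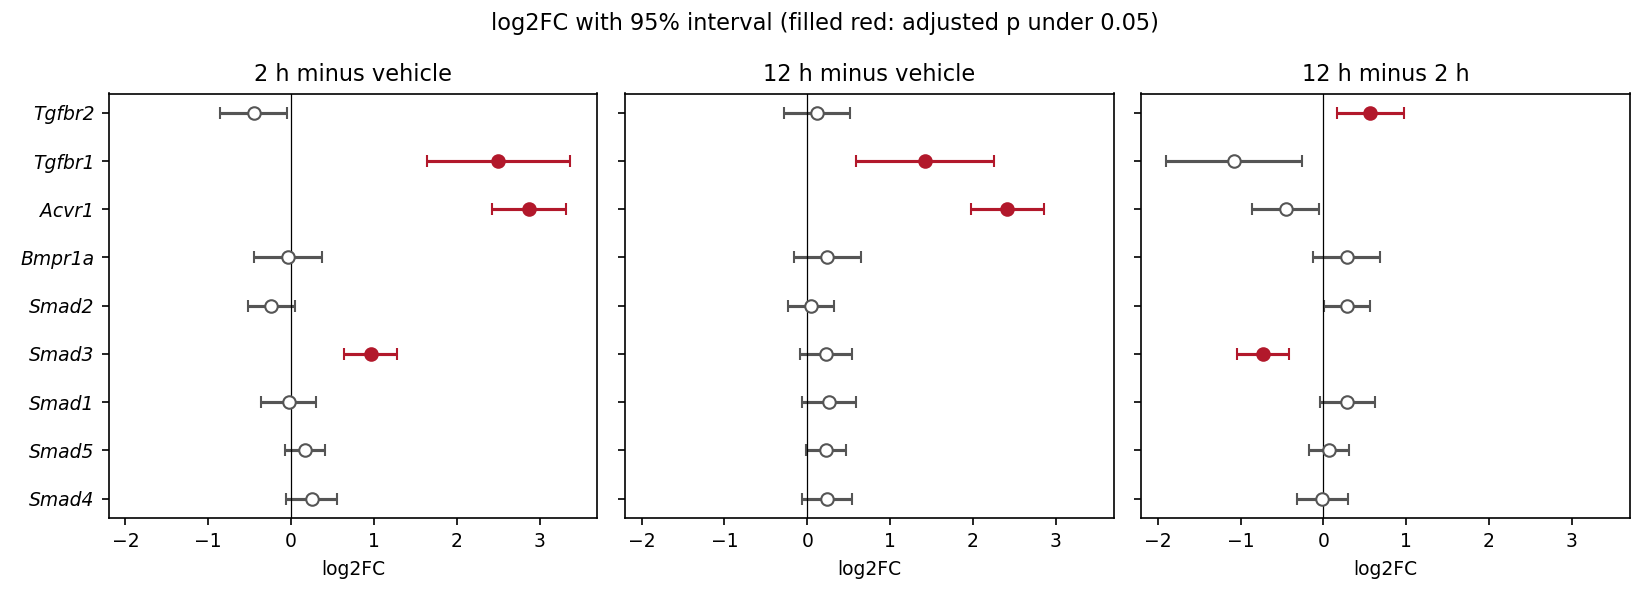
Log2FC of the 9 tested members with 95% intervals, for 2 h and 12 h against vehicle and for 12 h against 2 h. The intervals of Acvr1 and Tgfbr1 lie to the right of 0 against vehicle at both times and that of Smad3 at 2 h only, and Tgfbr2 and Smad3 stand on opposite sides of 0 between the treated groups.

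Between 12 h and 2 h, 2 of the 9 tested members were called, Tgfbr2 higher and Smad3 lower, where 34.1% of all tested genes were called, 15.2% higher and 18.9% lower. The median log2FC of the members was 0.06, beside 0.01 over all genes. Apart from Tgfbr1 and Acvr1, given above, the log2FC of the members not called was 0.28 for Bmpr1a, 0.29 for Smad2, 0.29 for Smad1, 0.06 for Smad5 and -0.01 for Smad4, with adjusted p-values of 0.105 to 0.947 for these genes. With the replicate number as a block 7 members were called, Tgfbr2, Bmpr1a, Smad2 and Smad1 higher and Tgfbr1, Acvr1 and Smad3 lower, with adjusted p-values of 0.0002 to 0.0462. In that fit 5373 of the 11080 tested genes were called, in place of 3775.

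**Figure D3:**
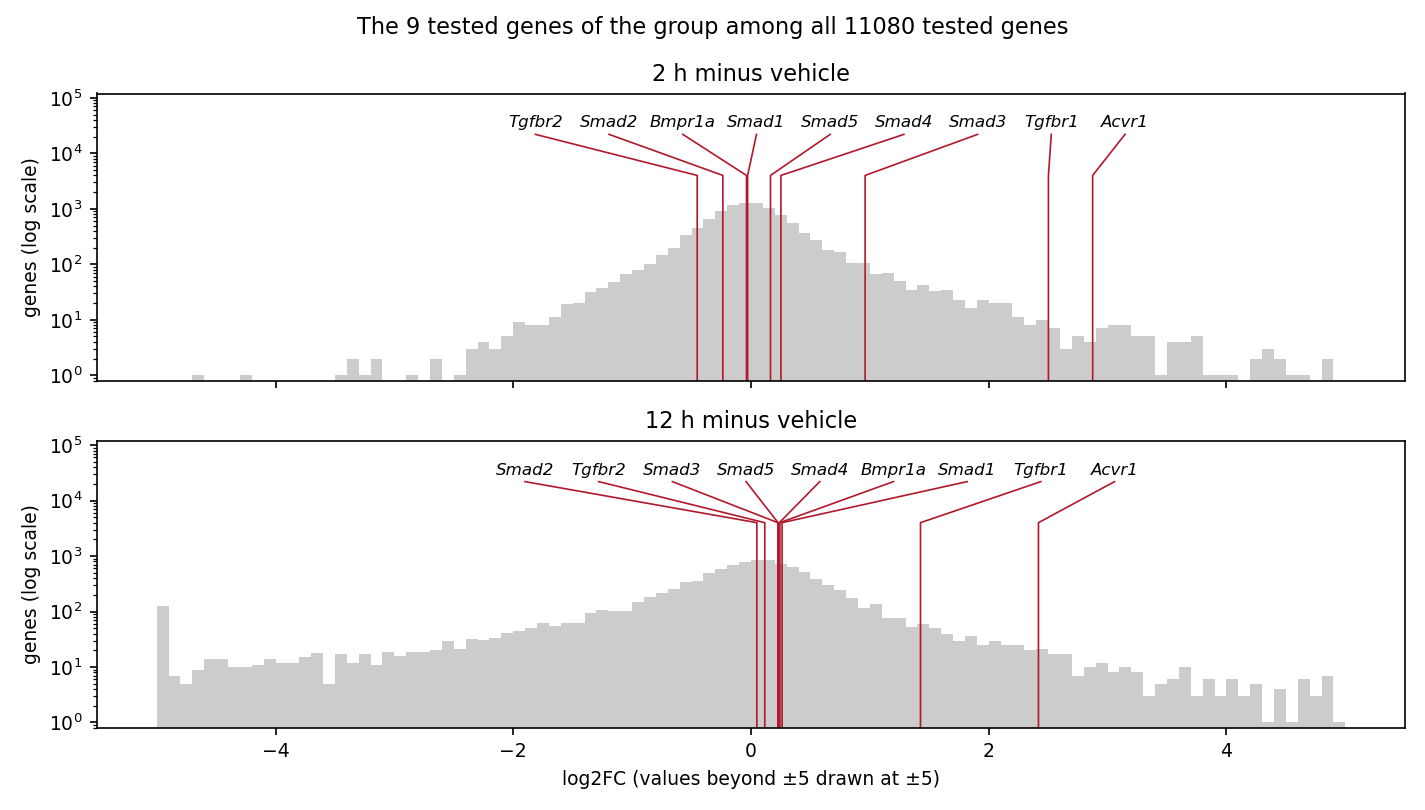
Histograms of the log2FC of the 11080 tested genes at 2 h and at 12 h against vehicle, with gene numbers on a log scale and the 9 members drawn as lines. Acvr1 and Tgfbr1 lie in the upper tail at both times, and the other members except Smad3 at 2 h lie within the bulk of all genes.

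To compare genes with one another, CPM was divided by the length of the annotated exons in kilobases (CPM per kb). In vehicle the order among the receptors was Tgfbr1 at 26.3 ± 6.89 CPM per kb (SD, n = 2), Tgfbr2 at 24.5 ± 3.60, Bmpr1a at 17.3 ± 1.497, Acvr1 at 5.57 ± 1.25 and Tgfbr3 at 0.0782 ± 0.0419. Tgfbr1 and Tgfbr2 did not differ beyond their spread. At 2 h Tgfbr1 was at 149 ± 67.8 and Acvr1 at 40.9 ± 5.05 CPM per kb, ahead of Tgfbr2 at 17.9 ± 3.64 and Bmpr1a at 16.8 ± 3.57, which overlapped. Acvr1 moved from the fourth to the second place among the 5 receptors. At 12 h Tgfbr1 was at 70.7 ± 15.9, Acvr1 at 29.8 ± 2.47, Tgfbr2 at 26.5 ± 0.738 and Bmpr1a at 20.5 ± 2.36 CPM per kb.

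Among the 5 Smads of the group, Smad3 was the most abundant per length in all 3 conditions, at 31.5 ± 3.74, 61.3 ± 7.27 and 36.9 ± 0.814 CPM per kb (SD, n = 2) in vehicle, at 2 h and at 12 h. Smad2 and Smad4 did not differ beyond their spread in vehicle, at 20.6 ± 1.30 and 20.4 ± 0.708 CPM per kb. Smad4 was above Smad2 at 2 h, at 24.2 ± 1.21 against 17.5 ± 1.93, and the levels were 24.01 ± 3.64 and 21.3 ± 0.848 at 12 h. Smad5 at 12.8 ± 0.801 and Smad1 at 10.4 ± 0.795 CPM per kb were the lowest in vehicle. The order of Smad5 and Smad1 depends on the length used, since with the longest transcript in place of all exons Smad1 was at 16.0 and Smad5 at 14.4 CPM per kb in vehicle. That of Smad2 and Smad4 does too, since with the longest transcript they were at 25.6 ± 1.61 and 22.3 ± 0.776 in vehicle and at 26.5 ± 1.05 and 26.3 ± 3.99 at 12 h.

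**Figure D4:**
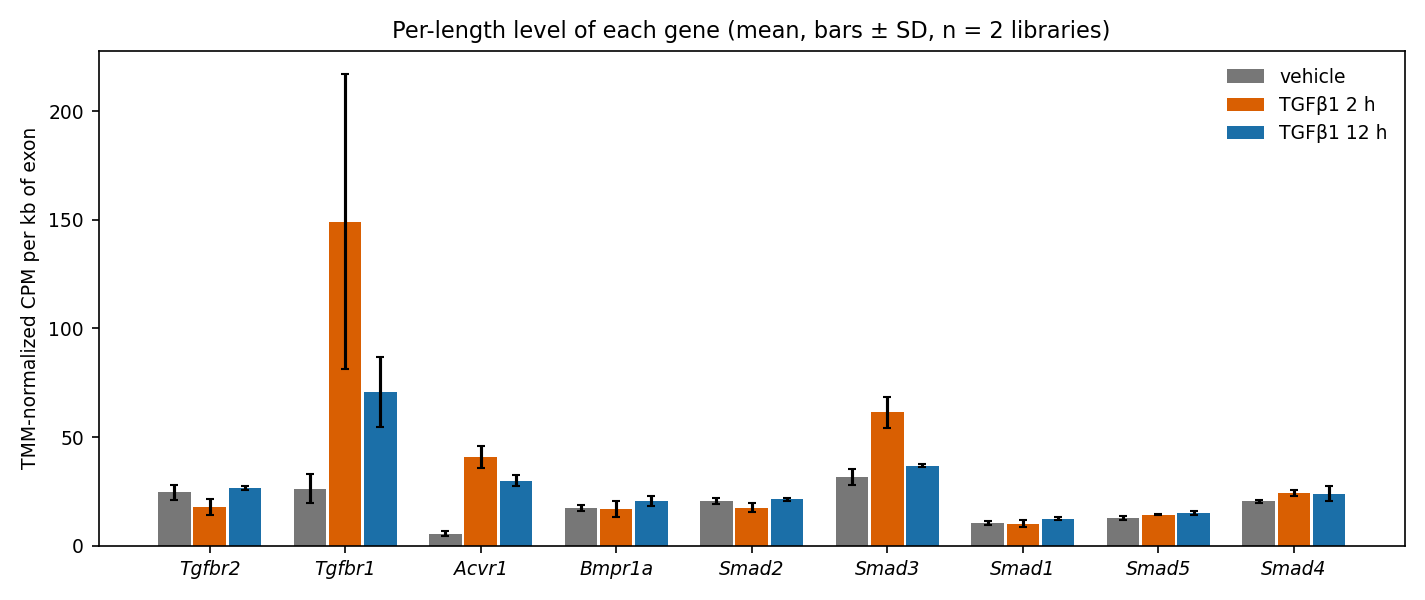
Mean CPM per kb of exon for each tested member in the 3 conditions, as bars from 0 with the SD of the 2 libraries. Tgfbr1 and Smad3 lead the receptors and the Smads, and Acvr1 passes Tgfbr2 and Bmpr1a after TGFβ1.

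Ratios between members within a library do not depend on the scaling of libraries. The log2 ratio of Tgfbr1 to Tgfbr2 was 0.21 and -0.03 in the vehicle libraries, 3.27 and 2.72 at 2 h, and 1.66 and 1.14 at 12 h. The log2 ratio of Acvr1 to Bmpr1a was -1.51 and -1.79 in vehicle, 1.20 and 1.38 at 2 h, and 0.51 and 0.58 at 12 h, so Acvr1 went from below to above Bmpr1a. The log2 ratio of Tgfbr1 to Bmpr1a was 0.58 ± 0.26 (SD, n = 2) in vehicle, 3.08 ± 0.37 at 2 h and 1.78 ± 0.16 at 12 h. For Smad3 to Smad2 it was 0.67 and 0.55 in vehicle, 1.82 and 1.80 at 2 h, and 0.81 and 0.77 at 12 h. In each ratio the 3 conditions did not overlap, but an exact permutation test of 2 libraries against 2 cannot give a two-sided p below 0.333.

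**Figure D5:**
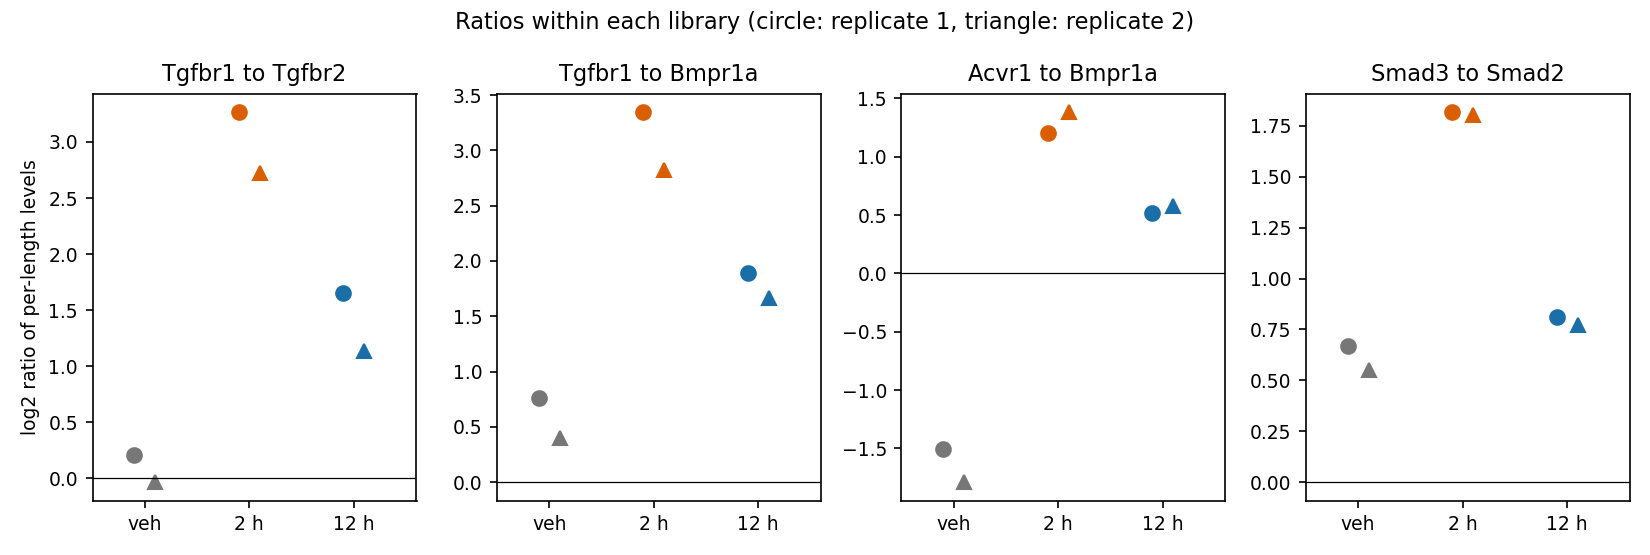
Log2 ratios of per-length levels within each library for 4 pairs of members, with circles for replicate 1 and triangles for replicate 2. In every pair both libraries of 2 h lie above both libraries of 12 h, which lie above both vehicle libraries.

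As shares of the summed per-length level of 4 type I receptors (Tgfbr1, Acvr1, Bmpr1a and Acvr1b), Tgfbr1 made up 41.5% in vehicle, 67.6% at 2 h and 52.6% at 12 h. The share of Acvr1 was 8.82 ± 0.648% (SD, n = 2) in vehicle, 19.8 ± 4.80% at 2 h and 22.4 ± 1.79% at 12 h. Bmpr1a made up 27.6%, 8.01% and 15.3%. Among the 4 receptor Smads, Smad3 made up 41.8 ± 1.28%, 59.3 ± 0.773% and 43.1 ± 0.875% of the summed level, and Smad2 27.4%, 16.9% and 24.9%. A share falls when another member rises, and the CPM of Bmpr1a and Smad2 is given above.

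The promoters of the 3 genes that rose at 2 h, and of Tgfbr2 as a receptor that was not called higher, are shown for their base composition and for 3 short motifs. RefSeq (GRCm38.p6) gave start regions of 250 bases before to 50 after the start for 7 of the 10 members, 10 regions in all, and Tgfbr3, Smad2 and Smad4 were not in the table used here. The motifs, searched on both strands, were CAGAC, whose letters Smad proteins are known to bind, GGCGCC, another sequence bound by Smads, and TGANTCA, the letters of AP-1 sites. The 250 bases before the first listed start are printed 5′ to 3′ in the direction of the gene, with motif matches in capitals. The regions are chr4:47352972-47353221 on the plus strand and chr2:58566829-58567078, chr9:63757995-63758244 and chr9:116175364-116175613 on the minus strand.
Tgfbr1: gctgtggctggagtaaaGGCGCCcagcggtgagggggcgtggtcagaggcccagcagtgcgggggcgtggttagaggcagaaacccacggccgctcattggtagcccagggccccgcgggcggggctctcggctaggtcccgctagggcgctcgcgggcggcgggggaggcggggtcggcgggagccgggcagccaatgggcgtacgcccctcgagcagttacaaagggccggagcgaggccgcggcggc
Acvr1: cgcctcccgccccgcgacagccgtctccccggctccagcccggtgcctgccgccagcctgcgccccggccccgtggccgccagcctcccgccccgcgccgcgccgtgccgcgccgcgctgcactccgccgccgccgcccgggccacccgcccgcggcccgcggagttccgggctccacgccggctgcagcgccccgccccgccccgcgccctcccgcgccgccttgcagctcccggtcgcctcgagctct
Smad3: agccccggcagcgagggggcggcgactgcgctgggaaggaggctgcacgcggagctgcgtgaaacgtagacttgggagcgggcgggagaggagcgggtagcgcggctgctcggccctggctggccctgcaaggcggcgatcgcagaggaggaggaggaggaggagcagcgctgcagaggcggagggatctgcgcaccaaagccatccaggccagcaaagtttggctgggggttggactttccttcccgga
Tgfbr2: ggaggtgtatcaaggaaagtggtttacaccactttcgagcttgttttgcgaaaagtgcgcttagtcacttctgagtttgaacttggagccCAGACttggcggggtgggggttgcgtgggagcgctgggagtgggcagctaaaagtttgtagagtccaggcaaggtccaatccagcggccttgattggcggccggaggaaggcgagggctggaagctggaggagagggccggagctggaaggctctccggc

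Tgfbr1 held GGCGCC at position -233 from its start and Tgfbr2 held CAGAC at position -160, the second listed region of Tgfbr1 held CAGAC at -203 and the region of Bmpr1a held GGCGCC at -198, whereas the windows of Acvr1 and Smad3 held none of the 3 motifs. Over the 10 regions of members, 3 held CAGAC, 4 held GGCGCC and 0 held TGANTCA. Among all 32851 promoter regions of that length, 49.6% held CAGAC, 11.9% held GGCGCC and 7.81% held TGANTCA. The first and the second listed region of Smad5 overlap and hold the same GGCGCC, which is counted in both. The G and C content of the printed bases was 85.6% for Acvr1, 74.8% for Tgfbr1, 69.2% for Smad3 and 58.4% for Tgfbr2.

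The genes whose pattern over the 6 libraries was most like that of Acvr1 were Phldb3, Steap4 and Rnf19b, with root mean square differences of 0.11, 0.16 and 0.20 on the log2 scale after centring on vehicle. For Tgfbr1 they were Egr2, Fam210b and Pcdh1, at 0.33, 0.33 and 0.37, over the same 11080 genes. The differences were larger for Tgfbr1 than for Acvr1. They were taken over single libraries, so the spread between replicates enters them, and it was wide for Tgfbr1 at 2 h. Its part in these differences was not tested. The vehicle levels of Steap4 and Egr2 were 0.488 and 0.786 CPM, so their values there rest on few counts.

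Other receptors of the superfamily were mostly low, and 5 of 14 were tested. Of these, 1 was called at 2 h and 2 at 12 h, beside 15.2% and 43.3% of all tested genes, and the median log2FC was 0.12 and 0.39, beside -0.01 and 0.02. Bmpr2, the type II receptor of BMP ligands, rose with a log2FC of 1.19 at 2 h (SE 0.14, adjusted p = 0.00315) and 1.15 at 12 h (SE 0.14, adjusted p = 0.00104). Acvr2a, a type II receptor of activin, fell at 12 h with a log2FC of -0.95 (SE 0.27, adjusted p = 0.0299), and had a log2FC of -0.72 at 2 h (adjusted p = 0.132), which was -1.17 (0.0132) without replicate 1 and -0.39 (0.306) without replicate 2 of 2 h. The fall of Acvr2a at 12 h lost its call when either vehicle library or either library of 12 h was left out (log2FC of -0.75 to -1.23, adjusted p = 0.0577 to 0.180). Acvr1b, the activin type I receptor, had log2FC of -0.52 and -0.09 with adjusted p-values of 0.0599 and 0.627. With the replicate block Acvr2a (-0.76, adjusted p = 0.0025) and Acvr1b were called lower at 2 h as well.

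Of the other Smads, Smad6 and Smad7 were tested and both rose at 2 h. Smad6, which restrains BMP signaling, had a log2FC of 1.076 at 2 h (adjusted p = 0.00304) and -0.08 at 12 h (adjusted p = 0.630), and Smad7, which restrains TGFβ receptors, had 2.07 (adjusted p = 0.00484) and 2.65 (adjusted p = 0.000589). Smad3 and Smad6 were both lower at 12 h than at 2 h, by log2FC of -0.73 and -1.16 (adjusted p = 0.00676 and 0.00116).

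Of 30 genes that encode partners of the receptors or Smads, 28 were tested, of which 9 rose and 0 fell after 2 h, and 10 rose and 4 fell after 12 h. Over all tested genes 9.91% rose and 5.25% fell at 2 h, and 21.8% and 21.5% at 12 h. With the replicate block 10 rose and 2 fell after 2 h, where 3222 of the 11080 tested genes were called, 1813 of them higher. The median log2FC of the partners without a block was 0.22 at 2 h and 0.14 at 12 h. Ski and Skil, repressors that bind Smads, rose at 2 h with log2FC of 2.90 and 2.09, Pmepa1, which binds receptor Smads, with 3.59, and Smurf1, a ubiquitin ligase for receptors and Smads, with 1.12. Nedd4l, another ubiquitin ligase for Smads, fell at 12 h with a log2FC of -2.52 (adjusted p = 5.1e-05). Of 18 tested genes known as TGFβ targets, 14 rose and 2 fell after 2 h, 14 rose and 3 fell after 12 h, beside the same shares of all genes, and the median log2FC was 1.58 and 2.14. Among the targets that rose, the log2FC at 2 h and 12 h was 3.06 and 6.13 for Ctgf, 2.54 and 2.06 for Itgb6 and 1.94 and 2.86 for Bhlhe40. Id2 and Id3, inhibitors of helix-loop-helix factors, fell at both times. Id2 had log2FC of -1.66 and -3.66 (adjusted p = 0.0362 and 0.000848), and Id3 had -1.06 and -2.05 (adjusted p = 0.00494 and 0.00015). Id1 fell at 12 h only, with a log2FC of -1.84 (adjusted p = 0.000166). Skil, Tgif1, Pmepa1 and Smad7 belong to more than 1 of these lists.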

How the data were processed

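Total RNA of the 6 cultures was made into stranded libraries and sequenced with 50 bp single-end reads. According to the methods, the authors aligned reads to mm9 with subjunc, kept unique reads, removed duplicates with SAMtools 0.1.19 and deposited raw read counts per gene, summed over exons by featureCounts with strand. The counts were analysed here with edgeR 4.0.16 in R 4.3.3. Genes at 2 CPM or more in 2 libraries or more were kept, TMM factors applied, and the 3 groups fitted together without a block by the quasi-likelihood test, two-sided, with a call at an adjusted p under 0.05. The SE is the absolute log2FC divided by the square root of F. Ratios and levels used GENCODE exons on NCBIM37, the build of mm9. limma 3.58.1 and DESeq2 1.42.0 gave alternatives, beside other scalings, filters and libraries left out. Deviations of same-numbered libraries correlated at 0.71 (vehicle and 2 h), 0.26 (vehicle and 12 h) and 0.39 (2 h and 12 h) across genes, though no label says what a number marks, so calls that change with the number as a block are given beside the results. The scripts were tested on simulated data. The p-values measure the spread between cultures of 1 line.

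The members and lists were chosen with earlier results of these data known. Genes were named from the members, Bmpr2, Acvr2a, Acvr1b, Smad6, Smad7 and other listed genes called at either time with an absolute log2FC above 1. For each member past these limits the 3 genes with the closest pattern, on log2(CPM + 0.25), were named too. Values are not given for all of the other listed genes past these limits. Markers are named from fixed lists. Another gene of this rule is not reported here.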

Additional observations from a re-analysis of the deposited data

Results flagged for a closer look

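Tgfbr2 and Smad3 are listed because the 2 h and the 12 h groups differed from each other in the test of the difference itself. That test called 34.1% of all tested genes. By edgeR's quasi-likelihood test Tgfbr2 was higher at 12 h than at 2 h by a log2FC of 0.57 (adjusted p = 0.0408). Smad3 was lower by a log2FC of -0.73 (adjusted p = 0.00676). Without replicate 1 or 2 of 12 h the log2FC was 0.59 or 0.53 for Tgfbr2 and -0.72 or -0.76 for Smad3, and neither was called. The lone library of 12 h was then assumed to vary like the other groups.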

How the results depend on the processing

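Acvr1 at both times, and Tgfbr1 and Smad3 at 2 h, were called in each of 15 alternatives, with log2FC of 2.66 to 3.12, 2.21 to 2.67, 1.92 to 2.90 and 0.82 to 1.09. With the replicate number as a block, 3222 of the 11080 tested genes were called at 2 h, 6127 at 12 h and 5373 between 12 h and 2 h. The members called were then 4 at 2 h, 3 at 12 h and 7 between 12 h and 2 h. Those 7 were Tgfbr2, Tgfbr1, Acvr1, Bmpr1a, Smad2, Smad3 and Smad1. The block also added Tgfbr2 at 2 h (-0.46, adjusted p = 0.0209) and Smad1 at 12 h (0.26, adjusted p = 0.0491). Called genes of the other lists under the block were 3 superfamily receptors and 12 partners at 2 h, and 1 such receptor, 2 other Smads and 15 partners between 12 h and 2 h. The block changed no other call of a member. Same-numbered libraries deviated together in all 3 pairs of groups, and the block lowered the common biological coefficient of variation from 0.148 to 0.0910, but what a number marks is not stated in the labels. A fit of the 2 groups alone called 893 genes at 2 h. Tgfbr1 between 12 h and 2 h was also called by DESeq2 (adjusted p = 0.00336), with total counts (0.0424), with a minimum of 10 counts (0.0498) and with no filter (0.0317). Total counts moved the median log2FC of all genes to -0.12 at 2 h and -0.11 at 12 h, and turned Tgfbr2 (-0.011) and Smad2 (-0.079) at 12 h and Id1 (-0.021) at 2 h. For receptors outside the group, DESeq2 and total counts each called 2 at 2 h, and the fit with no filter called 1 between 12 h and 2 h. With no filter, 2 other Smads were called at 12 h and 2 between 12 h and 2 h.

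Leaving out a library leaves its group with 1, which is assumed to vary like the other groups. Leaving out each in turn gave 637 to 2200 called genes at 2 h, 2900 to 5419 at 12 h and 1683 to 3821 between the treated groups. The low counts at 2 h came without either vehicle or either 12 h library, and those of the other comparisons without either 12 h library. Members called were 3 to 4, 1 to 2 (1 without replicate 2 of vehicle or replicate 1 of 12 h) and 0 to 5 (5 without replicate 1 of 2 h, 0 without either 12 h library). Log2FC ranged from -0.29 to 0.16 for Bmpr1a, -0.22 to 0.12 for Smad1, -0.20 to 0.38 for Dab2 and -0.040 to 0.23 for Id1 at 2 h, from -0.026 to 0.27 for Tgfbr2 and -0.013 to 0.12 for Smad2 at 12 h, and from -0.0030 to 0.11 for Smad5 and -0.19 to 0.13 for Smad4 between 12 h and 2 h. Partners called were 6 to 9 at 2 h, 7 to 15 at 12 h and 3 to 10 between treated groups, and receptors outside the group 1 to 3, 1 to 2 and 0 to 1. With the longest transcript as length, the levels of Acvr1 were 8.18, 60.0 and 43.7 CPM per kb in vehicle, at 2 h and at 12 h. With 2 libraries a group, small changes of the uncalled members cannot be resolved beyond the intervals given, and Tgfbr3 rests on at most 12 counts a library.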

Other observations

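The level of Tgfbr1 in replicate 1 was 1.45, 1.95 and 1.38 times that in replicate 2 in vehicle, at 2 h and at 12 h. Replicate 1 was above replicate 2 for 9 of the 10 members in vehicle, 10 at 2 h and 7 at 12 h, and for 49.6%, 49.2% and 42.8% of all tested genes.

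Tgfbr1 and Smad3 had more than 1 read per exon base in some library, as did 1594 of 18958 genes matched to the annotation, or 8.41%. Smad3 reached 1.31 and 1.11 reads per exon base at 2 h.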
